A study of Saccharomyces cerevisiae with 3 samples.

Results

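The tRNA modification enzymes of the budding yeast Saccharomyces cerevisiae were followed through exposure to 2-aminobenzimidazole. The set holds 39 genes listed by name as enzymes, or obligate subunits of enzymes, that alter bases or riboses of tRNA. The rule goes by name and uses no values, but the members were chosen with earlier results of these data known. Of the 39 genes, 37 were matched by symbol to a named spot among the 5203 named genes of the arrays. NCL1, a cytosine methyltransferase gene, and IKI3, the gene of the largest Elongator subunit, were not matched and are not analysed here.

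The treated cultures were strain S288C, which grew in YPD, a rich medium with glucose, at 25 °C and then received 2-aminobenzimidazole, a benzimidazole amine, at a final 5 mM for 2 h. The control cultures, of that same strain in that medium, had nothing added over 2 h. Each of 3 two-colour arrays set Cy5-labelled treated RNA against Cy3-labelled control RNA, both oligo-dT selected, and the series describes the arrays as independent biological samples. With 1 dye orientation throughout, a dye effect cannot be told apart from the treatment. Every value below is a log2 ratio of treated over control. The table states neither the base of the logarithm nor the direction. Base 2 was taken as customary, and treated over control is likely because the treated RNA is the first channel. Were it control over treated, every sign below would turn, and TRM82 and most of the set would be higher in treated cells. Values of 2 arrays correlated positively in every pair, so the arrays run the same way. The files hold ratios and no intensities, so nothing is known of the level of any gene or of how far a spot stood above background.

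Transfer RNAs leave transcription unmodified, and many dedicated enzymes then methylate, isomerise, reduce, deaminate or extend particular bases. Changes in the body of the tRNA mostly steady its fold, while those in the anticodon loop tune how codons are read. In yeast many of these enzymes are dispensable for growth in rich medium, and a few, among them that of wobble inosine, are essential. Polyadenylated RNA was measured here, so the values concern the messenger RNAs of the enzymes and say nothing of the tRNAs.

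Most of these messenger RNAs had ratios below 0 after exposure, yet only TRM82 passed the test. TRM82 fell 4.20-fold, with a mean of -2.07 ± 0.29 (SD, n = 3 arrays). Of the 17 members with a value on all 3 arrays, 1 was lower and 0 were higher at an adjusted p below 0.05 (limma, adjusted over all 3039 genes with 3 values). Among all 3039 genes 9.64% were lower and 8.36% higher by that rule, so 1 of 17 (5.88%) is no more than the background. At an unadjusted p below 0.05, 8 of the 17 were lower, against 19.8% of all genes, and 0 were higher, against 16.3%. These 8 were TRM82, TYW1, PUS7, TRM1, ELP3, ELP2, PUS4 and TRM13.

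The direction was more uniform than the calls. Of the 36 members with at least 2 values, 29 (80.6%) had a mean below 0, against 50.3% of the 5043 genes with at least 2 values. Their median was -0.63, and that of all those genes was -0.01. On array 1, 12 of 17 members lay below 0 (70.6%, against 52.7% of all genes with a value there). On array 2 it was 31 of 36 (86.1%, against 48.3%), and on array 3 it was 28 of 37 (75.7%, against 52.2%). The member medians were -0.29, -0.75 and -0.37 on arrays 1, 2 and 3, while the medians of all genes were -0.06, 0.03 and -0.04. The displacement was therefore present on each array and widest on array 2. Among the 17 members with 3 values, 11 lay below 0 on every array, against 30.6% of genes with 3 values, and TRM12 and THG1 lay above 0 on every array, against 25.8%. Genes of a set are not independent replicates, and these shares are given as a description without a test.

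**Figure D1:**
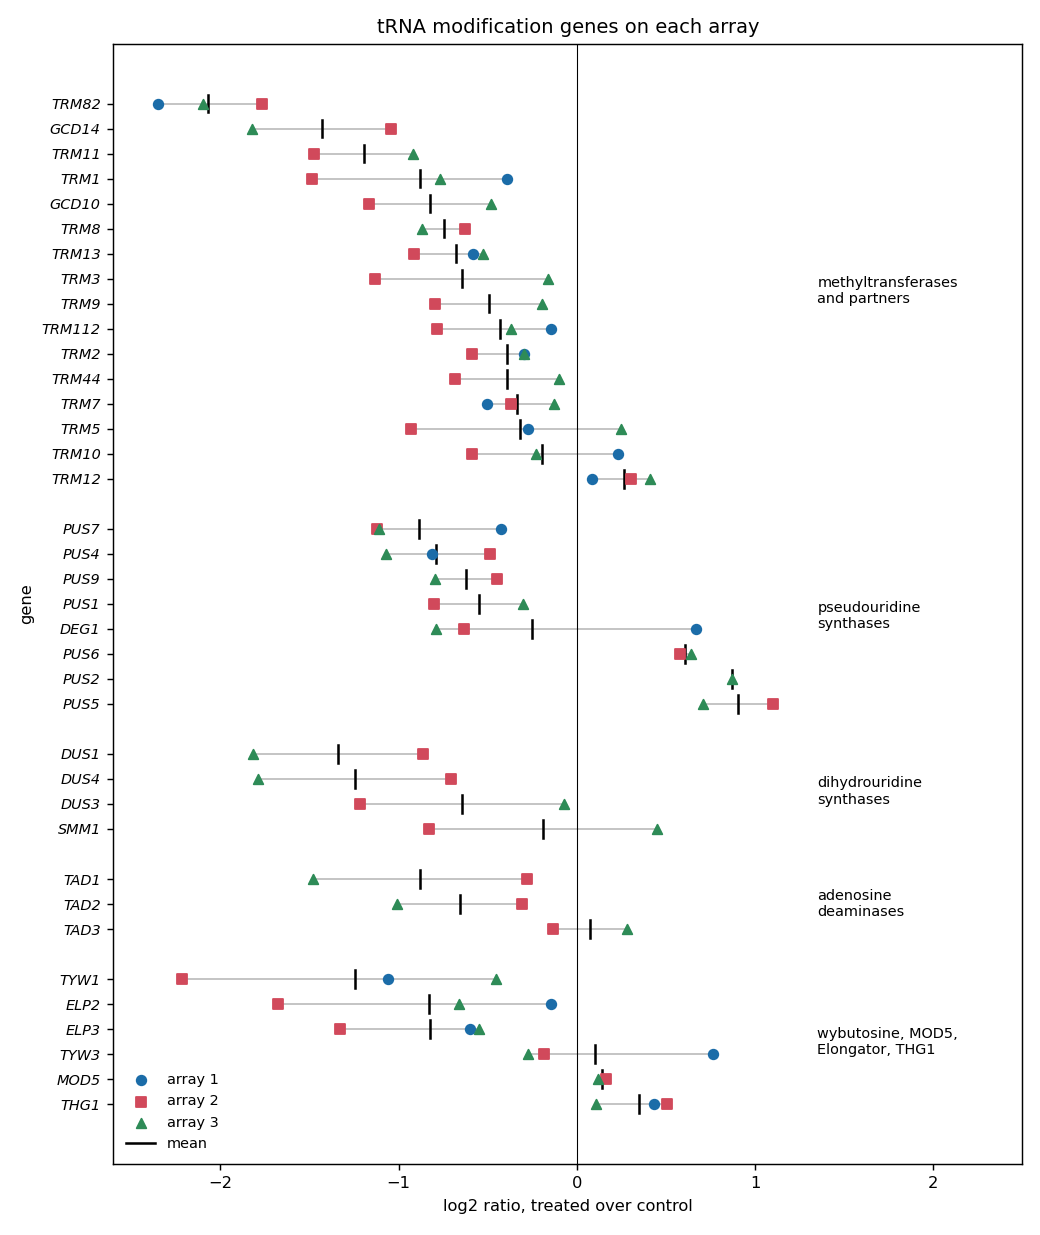
Log2 ratio of treated over control (x axis) for the 37 matched genes (rows, by role, lowest mean first). Points are single arrays, the grey line joins the lowest and the highest, and the black tick is the mean. Most points lie left of 0, TRM82 is farthest left at a mean of -2.07, and PUS5, PUS2 and PUS6 lie to the right.

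Array 1 gave far fewer values than the others. It held 17 of the 37 members (45.9%) and 58.9% of all named genes, against 36 and 37 members on arrays 2 and 3. Why a spot has no value is not given in the sources used here. All 4 dihydrouridine synthase genes and all 3 deaminase genes lacked a value on array 1. For 19 members the evidence is thus a pair of values from arrays 2 and 3, tested in a separate fit over the 5043 genes with at least 2 values. In that fit 0 of the 19 were lower, against 1.8% of the 2004 genes with exactly 2 values (limma). Also 0 of the 19 were higher, against 5.39% of the 5043 genes, a share that includes genes with 3 values. At an unadjusted p below 0.05, 4 of the 19 were lower (DUS1, DUS4, GCD14 and TRM11), against 8.38% of those genes, and 1 was higher (PUS5), against 8.68%. The wider fit again called TRM82 alone among 36 members (adjusted p = 0.00883, limma), against 5.83% of genes lower and 5.39% higher. Of the 19 members, 14 lay below 0 on both arrays and MOD5, PUS5 and PUS6 above 0 on both, against 30.7% and 34.3% of genes with exactly 2 values.

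Methyltransferase genes formed the largest class. Of 16 matched, 15 had a mean below 0, against 50.3% of all 5043 genes, with a median of -0.57 and TRM12 as the exception. TRM82 (YDR165W) encodes the non-catalytic subunit of the heterodimer that methylates a guanosine in the variable loop. Its ratios were -2.35, -1.77 and -2.10 on arrays 1, 2 and 3, at least 2-fold lower on each array. The adjusted p was 0.01 (limma), with a 95% interval of the mean from -2.71 to -1.43. The arrays lay close together, and TRM82 ranked 19 from the bottom of 3039 genes by its mean. By array it ranked 22 of 3062, 128 of 5044 and 48 of 5158 from the lowest. The call depended on the arrays kept. Without array 1 the mean was -1.93 (adjusted p = 0.168, limma) and without array 3 it was -2.06 (adjusted p = 0.117), while without array 2 it was -2.22 (adjusted p = 0.0021). In the fits without array 1 and without array 3, 0 of the 3039 genes passed in limma, and 347 and 411 were lower at an unadjusted p below 0.05. If the deposited values were natural logarithms, the change of TRM82 would be 7.94-fold.

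TRM8 (YDL201W), the catalytic partner of TRM82, had ratios of -0.63 and -0.87 on arrays 2 and 3 and none on array 1. TRM82 minus TRM8 was -1.14 and -1.23 on those arrays, so the catalytic partner lay closer to 0 on both. The mean of TRM8 was -0.75, with a 95% interval from -1.56 to 0.07 (adjusted p = 0.203, limma, genes with at least 2 values). A difference between subunits seen on 2 arrays was not tested.

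The subunit genes of the adenosine methyltransferase of the T loop, an enzyme that the initiator tRNA depends on, were both below 0. GCD14 (YJL125C), the catalytic subunit, had -1.04 on array 2 and -1.82 on array 3, the second-lowest mean of the set at -1.43. Its adjusted p of 0.0508 (limma, at least 2 values) missed the threshold by little, and it was 0.0413 with the arrays centred on their medians. GCD10 (YNL062C), the RNA-binding subunit, had -1.17 and -0.48 (adjusted p = 0.184). GCD14 minus GCD10 was 0.13 on array 2 and -1.34 on array 3, so their order was not the same on the arrays.

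TRM112 is a small activating subunit shared by several methyltransferases, 2 of which act on tRNA. TRM112 (YNR046W) had -0.15, -0.79 and -0.37 on arrays 1, 2 and 3, a mean of -0.43 ± 0.33 (adjusted p = 0.300, limma). TRM11 (YOL124C), which with it methylates a guanosine of the D stem, had -1.47 and -0.92 on arrays 2 and 3. TRM9 (YML014W), which with it methylates the wobble uridine, had -0.80 and -0.20. TRM11 minus TRM112 was -0.69 and -0.55 on arrays 2 and 3, whereas TRM9 minus TRM112 was -0.0081 and 0.17, so TRM9 and TRM112 lay close on both arrays. Of the partners outside tRNA, BUD23, which methylates ribosomal RNA, had 0.40, -0.93 and 0.20, a mean of -0.11 ± 0.71. MTQ2, which methylates a translation release factor, had 0.46 and -0.49 on arrays 2 and 3. Both changed sign between arrays. None of the 5 genes of this list passed in limma in either fit. Of all genes, 9.64% were lower and 8.36% higher with 3 values, and 5.83% and 5.39% with at least 2. At an unadjusted p below 0.05 only TRM11 was lower, against 788 of the 5043 genes.

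None of the remaining methyltransferase genes passed. TRM1 (YDR120C), which makes dimethylguanosine, had -0.39, -1.48 and -0.77, a mean of -0.88 ± 0.56 (adjusted p = 0.0895, limma). TRM13 (YOL125W), a ribose methylase of the acceptor stem, had -0.58, -0.92 and -0.53 (mean -0.68 ± 0.21, adjusted p = 0.117). Both stayed below 0 on every array, as did TRM2 and TRM7. TRM2 (YKR056W), the ribothymidine enzyme of the T loop, averaged -0.39 ± 0.17, and its 2 spots carried 1 identical set of values and were counted once. TRM7 (YBR061C), a ribose methylase of the anticodon loop, averaged -0.33 ± 0.19. TRM3 (YDL112W), a ribose methylase of the D loop, had -1.13 and -0.16 on arrays 2 and 3, and TRM44 (YPL030W), which methylates a uridine ribose, had -0.68 and -0.10. In these 2 genes array 2 was far lower than array 3. TRM5 (YHR070W), the enzyme for the guanosine beside the anticodon, had -0.28, -0.93 and 0.25. TRM10 (YOL093W), which methylates a guanosine between the acceptor and D stems, had 0.23, -0.59 and -0.23. These 2 genes therefore had signs that differed between arrays, with adjusted p of 0.499 and 0.665 (limma).

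**Figure D2:**
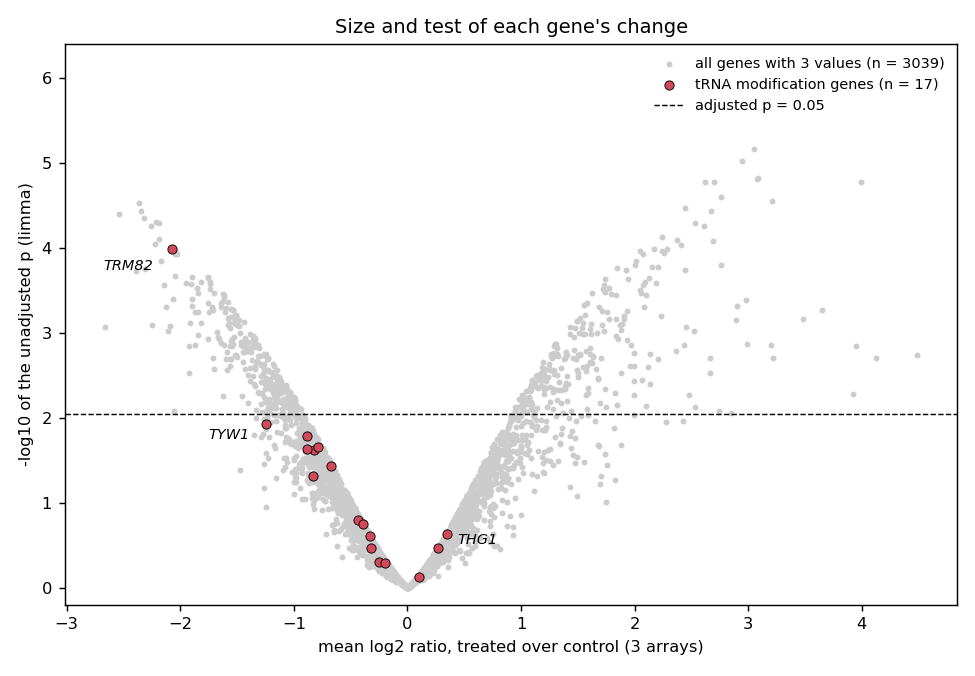
Mean log2 ratio of treated over control on 3 arrays (x axis) against -log10 of the unadjusted p of limma (y axis), for 3039 genes (grey) and the 17 tRNA modification genes among them (red). Of the red points only TRM82 lies above the dashed line of adjusted p = 0.05, and TYW1 lies just under it.

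Pseudouridine synthase genes split by gene. Of the 7 with at least 2 values, 5 had a mean below 0 and 2 above, against 50.3% of all 5043 genes below 0. None passed in limma, against 5.83% lower and 5.39% higher among the 5043 genes. PUS4 (YNL292W), which isomerises the nearly universal uridine of the T loop, had -0.81, -0.49 and -1.07 on arrays 1, 2 and 3 (mean -0.79 ± 0.29, adjusted p = 0.0862). PUS7 (YOR243C), an enzyme with targets in tRNA and other RNAs, had -0.43, -1.12 and -1.11 (mean -0.89 ± 0.40, adjusted p = 0.0720). Both were below 0 on every array, and of the alternatives tried PUS4 passed in limma only with array weights (adjusted p = 0.0474). PUS1 (YPL212C), the multisite enzyme of the nucleus, had -0.80 and -0.30 on arrays 2 and 3, and PUS9 (YDL036C), which acts in mitochondria, had -0.45 and -0.80. DEG1 (YFL001W), also called PUS3, which acts in the anticodon stem-loop, had 0.67 on array 1 against -0.63 and -0.79 on arrays 2 and 3. Its sign thus turned on array 1 alone, and its adjusted p was 0.650.

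The genes above 0 in this class were PUS5, PUS6 and PUS2. PUS5 (YLR165C), whose known target is the mitochondrial large ribosomal RNA and not a tRNA, had 1.10 and 0.71 on arrays 2 and 3, the highest mean of the set at 0.90 (95% interval 0.08 to 1.73, adjusted p = 0.141, limma, at least 2 values). PUS6 (YGR169C), which acts on cytosolic and mitochondrial tRNA, had 0.58 and 0.64 (adjusted p = 0.287). PUS2 (YGL063W), the mitochondrial relative of PUS1, had a single value of 0.87 on array 3 and no test. Of the 3, PUS5 and PUS6 repeated on the 2 arrays that measured them.

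Dihydrouridine synthase genes had the lowest class median of the means, -0.95 over 4 genes, all from arrays 2 and 3. Means of other classes take in array 1, so this ranking does not compare like with like. On neither array alone was the class lowest. Its median was -0.849 on array 2, against -0.856 for methyltransferase genes, and -0.93 on array 3, against -1.01 for deaminase genes. These flavoenzymes reduce uridines, mostly in the D loop. DUS1 (YML080W) had -0.87 and -1.82 (adjusted p = 0.0677, limma, at least 2 values) and DUS4 (YLR405W) had -0.71 and -1.79 (adjusted p = 0.0896). The profiles of DUS1 and DUS4 were alike, with array 3 lower by about 1 unit. DUS3 (YLR401C), which reduces a uridine in the variable loop, had -1.21 and -0.07, the opposite order. SMM1 (YNR015W), also called DUS2, had -0.83 and 0.45. None passed.

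Deaminase genes make inosine from adenosine. TAD1 (YGL243W), which acts beside the anticodon of alanine tRNA, had -0.28 and -1.48 on arrays 2 and 3. TAD2 (YJL035C), the catalytic subunit of the essential wobble enzyme, had -0.31 and -1.01, and TAD3 (YLR316C), its structural partner, had -0.13 and 0.28. TAD2 minus TAD3 was -0.18 on array 2 and -1.29 on array 3. Adjusted p in limma were 0.204, 0.282 and 0.919, so none of the 3 was called.

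**Figure D3:**
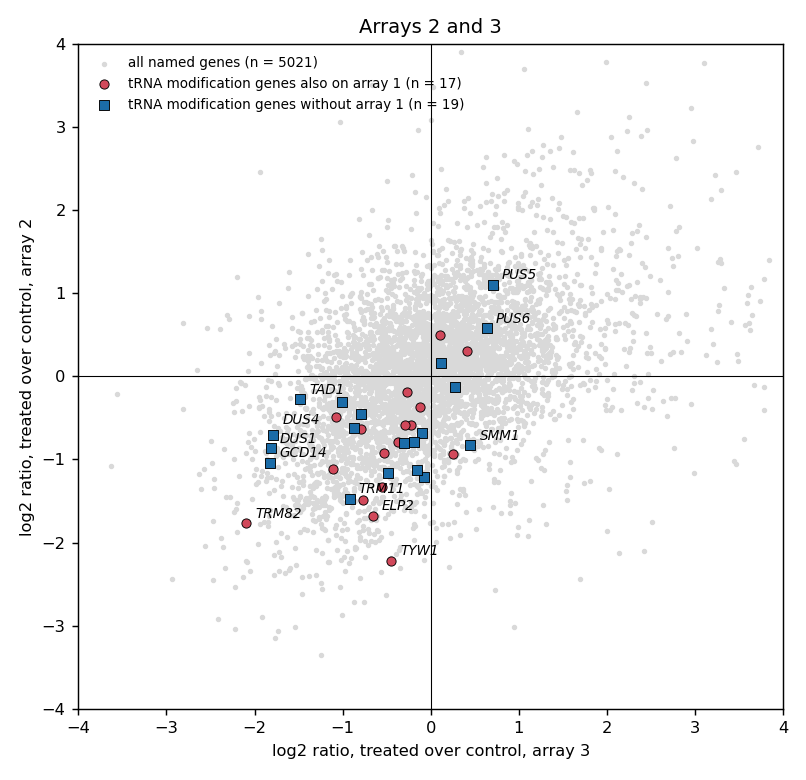
Log2 ratio of treated over control on array 3 (x axis) and array 2 (y axis) for 5021 genes (grey) and 36 tRNA modification genes, those also on array 1 as red circles and those without it as blue squares. The lower left holds 28 of the 36 and the upper right 5, against 33.86% and 32.9% of the 5021 genes. Beyond the axes lie 13 grey points.

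Wybutosine is a tricyclic guanosine built stepwise beside the anticodon of phenylalanine tRNA, after Trm5 has methylated the base. TYW1 (YPL207W), the iron-sulphur enzyme that forms the third ring, had -1.06, -2.22 and -0.45 on arrays 1, 2 and 3. Its mean was -1.24 ± 0.90 (95% interval -2.12 to -0.37) and its adjusted p 0.0597 (limma), with array 2 lowest. With array weights the adjusted p of TYW1 was 0.0425 (limma), and in every other alternative it missed the threshold. It was 0.0697 with the arrays centred and 0.118 without array 2, where the mean was -0.76. TRM12 (YML005W), also called TYW2, which adds the next group, had 0.09, 0.30 and 0.41 (mean 0.27 ± 0.17, adjusted p = 0.501). TYW3 (YGL050W), a methyltransferase of the step after, had 0.76, -0.19 and -0.27 (adjusted p = 0.845). TYW1 minus TRM12 was -1.14, -2.52 and -0.86 on arrays 1, 2 and 3, a difference of 1 sign on every array that was not tested. PPM2 (TYW4), the last enzyme of the pathway and not one of the 39, fell to -0.99 ± 0.02 (adjusted p = 0.0406, limma), and its values lay between -1.002 and -0.971. Of the 4 genes of this route that follow TRM5, the first and the last were thus the low ones, and the last passed.

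Elongator starts the modification of the wobble uridine that Trm9 completes. ELP3 (YPL086C), its catalytic subunit, had -0.60, -1.33 and -0.55 (mean -0.83 ± 0.44, adjusted p = 0.0905, limma). ELP2 (YGR200C), a scaffold subunit, had -0.15, -1.67 and -0.66 (mean -0.83 ± 0.78, adjusted p = 0.136). The pair had like means, and both genes were lowest on array 2. MOD5 (YOR274W), which adds an isopentenyl group beside the anticodon, had 0.16 and 0.12 on arrays 2 and 3. THG1 (YGR024C), which adds the extra guanosine at the end of histidine tRNA, had 0.43, 0.50 and 0.11 (mean 0.35 ± 0.21, adjusted p = 0.382). THG1 and MOD5 were thus on the other side of 0 from most of the set.

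The spread between arrays was similar for these genes and for all, while the agreement of single pairs of arrays differed. The median SD between arrays was 0.40 for the 17 members with 3 values and 0.47 for the 3039 genes. Across the 17 members, which are not independent, Pearson r was 0.63 for arrays 1 and 2, 0.66 for arrays 1 and 3, and 0.58 for arrays 2 and 3. For the 3039 genes it was 0.52, 0.75 and 0.47. By rank (Spearman rho) the members had 0.58, 0.49 and 0.59, and the 3039 genes 0.53, 0.68 and 0.48. Arrays 1 and 3 thus agreed best over all genes and least by rank among the members. Array 2 was the lowest of the 3 for 10 of the 17 members, against 37.6% of all genes. Without array 1, 30 of 36 members had a mean below 0, against 49.55% of all genes. Without array 2 it was 27 (against 53.88%) and without array 3 it was 29 (against 48.26%), and these are counts, not always of the same genes.

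Other genes of tRNA and rRNA modification were read beside the set, from lists chosen by function. Of 33 matched genes for other tRNA modifications or for the factors these need, 19 had 3 values. In limma 3 of the 19 were lower and 1 higher, against 9.64% and 8.36% of all 3039 genes. The median of this list was -0.27 over its 32 genes with at least 2 values, against -0.63 for the tRNA modification set. Over genes with 3 values the medians were -0.11 and -0.43. KRE33, the acetyltransferase of tRNA and ribosomal RNA, fell to -1.61 ± 0.05 (3.06-fold, adjusted p = 0.0138), with -1.58, -1.67 and -1.59. RTT10, a partner of Trm7 also called TRM734, fell to -1.03 ± 0.33 (adjusted p = 0.0437), and PPM2 was the other lower gene. TRM7 itself stood at -0.33, and TRM732, its other partner, at 0.04 ± 0.12, and no difference between the 3 was tested. ISU1, a scaffold for iron-sulphur clusters counted among the factors that supply them, rose to 1.62 ± 0.47 (3.06-fold, adjusted p = 0.0174). In the fit over genes with at least 2 values RTT10 missed the threshold (adjusted p = 0.0514).

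Genes for cutting, splicing and end repair of tRNA showed no calls. LOS1, the export gene of this list, was not matched, so nothing is known of export here. Of 21 matched, 20 had at least 2 values, with a median of -0.25. The limma fit over such genes called 0 of them, against 5.83% lower and 5.39% higher among all 5043 genes. By an unadjusted p below 0.05, 4 of the 20 were lower and 1 higher, against 788 and 686 of the 5043. In this list the largest means were those of RPP1 and POP3, subunits of RNase P, which trims the leader of tRNA. RPP1 had -1.65 and -0.97 on arrays 2 and 3 (adjusted p = 0.0623), and POP3 had -1.84 and -0.77 (adjusted p = 0.0791). In the fit over genes with 3 values, 9.64% of all 3039 genes were lower and 8.36% higher. In the rRNA modification list, 4 of 12 genes with 3 values were lower and 0 higher. Among them GAR1 and NOP1, of the ribonucleoproteins that guide pseudouridylation and ribose methylation, fell to -2.36 ± 0.07 and -2.31 ± 0.68 (adjusted p = 0.00850 and 0.0121). NOP2 (-1.76 ± 0.74) and CBF5 (-1.56 ± 0.31) were the other lower genes. The median over the 21 genes of this list with at least 2 values was -0.61, close to the -0.63 of the tRNA modification set. Of these 21 means 18 lay below 0, against 50.3% of all 5043 genes. The 21 include RKM1, RKM2, RKM3 and RKM4, which methylate ribosomal proteins and not ribosomal RNA. Their means were -0.50, -0.81, -0.29 and -0.26, and none of them was called. TRM82 lay in the range of the 4 called rRNA genes, and the other 35 members did not reach their weakest mean. Those 4 were picked by their test, and no uncalled rRNA modification gene reached that mean either. No difference between lists was tested.

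**Figure D4:**
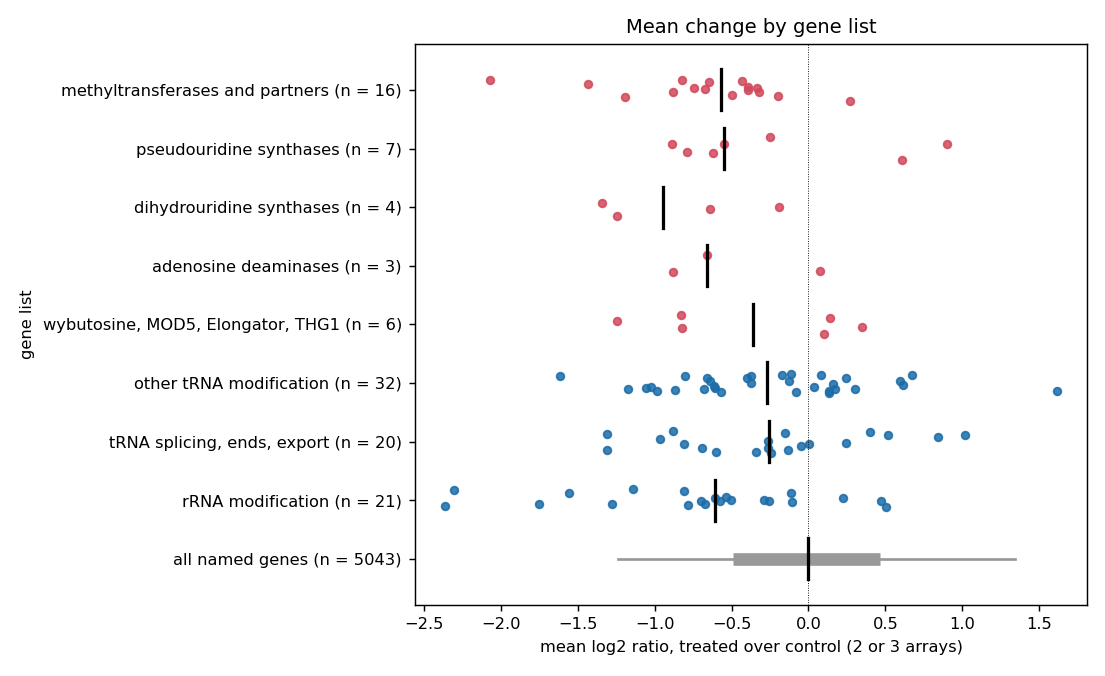
Mean log2 ratio of treated over control over 2 or 3 arrays (x axis) by gene list. Points are genes, red for the tRNA modification classes and blue for the other lists, and black ticks are medians. For all 5043 named genes the thick bar spans the quartiles and the thin line percentiles 5 to 95. The red medians lie between -0.95 and -0.36, and that of all genes at -0.01.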

How the data were processed

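Per the labels, 3 two-colour arrays each compared a treated with an untreated yeast culture. The deposited table holds log2 ratios, base and direction inferred, after a LOWESS normalisation by the authors over spots with flag value 0, per the labels' description. How background was corrected and which scanner was used is not given in the sources used here. Spots were named through the platform annotation and the RefSeq table of assembly R64, and repeated spots of 1 gene were averaged on each array. Members matched by symbol.

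Ratios were tested gene by gene against 0 (limma 3.58.1, R 4.3.3; intercept only, eBayes, two-sided, Benjamini-Hochberg over all genes tested, threshold 0.05). One fit covered genes with 3 values and another genes with at least 2. P-values were never adjusted over the set alone. The number of arrays limits the precision. Code was tested on simulated data. The members and lists were chosen with earlier results of these data known. Every matched member is named; from other lists, up to 2 highest and 2 lowest passing genes or, with none passing, the 2 with the largest absolute mean over at least 2 arrays. All members of the Trm112 list are given. Promoter motifs were planned but not searched. Alternatives were centring, scaling, a robust prior, array weights, an adjusted p below 0.01, a null of a 1.5-fold change and leaving out each array.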

Additional observations from a re-analysis of the deposited data

How the results depend on the processing

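TRM82 was lower with all 3 arrays, with genes on at least 2 arrays, centred, scaled, with a robust prior, with array weights, at an adjusted p below 0.01 (just under it, at 0.00999999), against a 1.5-fold change (adjusted p = 0.0402) and without array 2. Leaving out single arrays left 0 to 1 lower members of 17 (limma, 3 to 4 at an unadjusted p below 0.05) and 0 to 366 lower and 0 to 373 higher genes of 3039. The call of TRM82 was lost without array 1 (mean -1.93) and without array 3 (mean -2.06), where 0 genes passed at all and 347 and 411 were lower at an unadjusted p below 0.05. With array weights 3 members of 17 were lower (17.6%, against 14.1% of genes), TYW1 (-1.09) and PUS4 (-0.83) joining TRM82. At an adjusted p below 0.01, 13 genes were lower and 23 higher, and against a 1.5-fold change 16 and 29. Of the 19 members on 2 arrays, 1 was lower with centred or scaled arrays (GCD14; 5.26%, against 2.3% and 2.05% of genes with exactly 2 values) and 2 with array weights (GCD14 and DUS1; 10.5%, against 2.79%), alternatives chosen after seeing the data. The median of the 17 members was -0.434 and ranged from -0.711 to -0.314 when single arrays were left out. Uncalled means changed sign when single arrays were left out for DEG1 (-0.711 to 0.0181, above 0 without array 3), TRM10 (-0.409 to 0.00133, above 0 without array 2) and TYW3 (-0.23 to 0.288, below 0 without array 1). After centring, 11 of 17 and 14 of 19 members lay below the array median on every array with a value. The shares of all genes were 29.48% with 3 values and 30.54% with exactly 2. All 3 arrays form 1 group, each with its own control, so the test of the ratios against 0 is itself the paired comparison. The motif search planned for promoters was not run.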

Other observations

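TRM13 and TRM11 are adjacent genes on their chromosome, and the next 2 genes past TRM11 are HRP1 and SMF1. These neighbours were looked up after the values were seen. SMF1, a metal transporter gene, stood at -1.07 ± 0.44 (adjusted p = 0.0448, limma), and HRP1, an RNA cleavage factor gene, at -0.80 ± 0.26 (adjusted p = 0.0815). On the other side of TRM13, MDH2, the cytosolic malate dehydrogenase gene, stood at 1.09 ± 0.26 (adjusted p = 0.0349), and beyond it RPL25, a ribosomal protein gene, at -0.99 ± 1.00 (adjusted p = 0.120). Beside TRM82, SEC1 stood at -0.09 ± 0.32 (adjusted p = 0.848, limma), and SEC5 had no value here. The genes beyond these were above 0, CWC15 with 0.61 and 1.41 on arrays 2 and 3 and TAF10 at 0.61 ± 0.61 (adjusted p = 0.214).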
